A study of Mus musculus with 4 samples.

Results

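The cells described here are non-dividing splenic B cells with messenger RNA (mRNA) of *Samsn1* and of several genes that accompany it. A cell entered the set if it held at least 1 unique molecular identifier (UMI, 1 counted mRNA molecule) of *Samsn1* and of at least 3 of the 6 genes *Gadd45g*, *Lifr*, *Rflnb*, *Il4i1*, *B3gnt7* and *St7*. It also had to carry 1 dominant hashtag antibody and UMIs of the B cell gene *Cd79a*, and to lack UMIs of *Cd3e* and of *Mki67*, a gene of dividing cells. The rule was met by 686 cells, out of 6339 cell barcodes in the B cell library and 15646 in both libraries of the series. They are called Samsn1-high B cells or members, and the other 4636 *Mki67*-negative B cells that passed the same filters are called other B cells. Since measured levels of these 7 genes chose the members, every difference between members and other B cells of the same pool is a description.

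Spleens came from mice of the C57BL/6NRj strain with a Cre allele that is active in B cells and the floxed allele Il2rbfl/fl, in which Cre removes *Il2rb*, the beta chain of the IL-2 and IL-15 receptors, from B cells, and the controls carry Cre too. The labels print the same allele text for the knockout (KO) and for the control, so genotype was read from the hashtag key, which names the pools KO and Cre. Mice were unimmunized (day 0) or taken 4 days after sheep red blood cells had been injected into the peritoneum (day 4), and B cells were enriched with a magnetic kit. All 4 pools were loaded together in 1 library of the 5′ droplet method, with the matching CD4+ T cells in a second library, 1 pool per genotype and day, and no label states how many mice each held, nor their age. Without replicate pools there is no test, and the intervals given are 95% intervals of counting error alone.

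Resting follicular B cells recirculate and wait for antigen. When antigen, CD40 ligand or cytokines such as IL-4 reach them, they raise MHC class II and costimulatory proteins, change chemokine receptors, and only some of them go on to divide and to form germinal centers or plasma cells. Several genes of the rule are known from that early stage: *Samsn1* encodes an adaptor protein that restrains B cell activation, *Il4i1* an amino acid oxidase induced by IL-4, *Gadd45g* a stress-inducible protein that feeds into MAP kinases, and *Lifr* the receptor chain for LIF, which pairs with gp130. *Rflnb* encodes a protein that binds filamin, and *B3gnt7* a glycosyltransferase.

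The members were nearly all from immunized mice. The rule was chosen with earlier results of these data known and was expected to find cells almost only at day 4. The day shares below, thinned or not, are therefore a description and no test. In the control, 11 of 1087 *Mki67*-negative B cells met the rule at day 0 (1.01%, exact binomial interval 0.506 to 1.80%) and 309 of 1416 at day 4 (21.8%, 19.7 to 24.1%). In the KO, 11 of 955 met it at day 0 (1.15%, 0.576 to 2.05%) and 355 of 1864 at day 4 (19.0%, 17.3 to 20.9%). The day 4 share was thus 21.6 times the day 0 share in the control (11.9 to 43.7) and 16.5 times in the KO (9.13 to 33.4). Between genotypes the day 4 share had a KO to control ratio of 0.873, with an interval of 0.747 to 1.02 that includes 1.

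Because a rule that asks for 4 detected genes finds more cells at higher depth, each cell was also thinned to 3000 UMIs and the rule applied again. Members then were 0 of 936 cells in the control and 1 of 842 in the KO at day 0 (0.119%), and a count of 0 allows up to 0.393%. At day 4 they were 103 of 1302 control cells (7.91%, 6.50 to 9.51%) and 139 of 1714 KO cells (8.11%, 6.86 to 9.50%), after 114 and 150 shallower cells had been left out. The gap between the days remained, whereas the order of the genotypes turned, with a KO to control ratio of 1.03. Without thinning, members had a median of 6843 UMIs against 5631 in other B cells of control day 4, and 6814 against 5588 in KO day 4. The 22 members of day 0 had medians of 8637 and 7266 UMIs, against 4632 and 4907 in the other B cells of their pools.

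**Figure D1:**
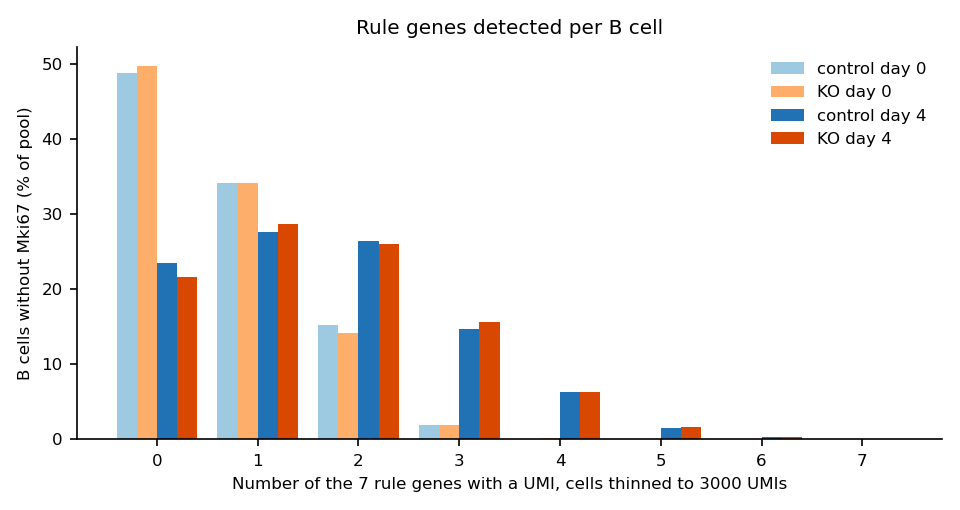
Share of *Mki67*-negative B cells (% of each pool, vertical axis from 0) by how many of the 7 rule genes had a UMI after thinning every cell to 3000 UMIs (horizontal axis), in 4 pools of 1 sample each, without error bars. Cells with none of the 7 genes were 48.8% and 49.8% of the day 0 pools and 23.4% and 21.6% of the day 4 pools. Beyond 1 gene the distribution falls off without a gap.

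The plot of rule genes per cell shows no separate hump of members at day 4. Shares there were highest at 1 rule gene, 27.6% in the control and 28.7% in the KO, and fell from that point on. Cells with exactly 3 of the 7 genes made up 14.7% of control and 15.6% of KO day 4 cells after thinning, and 1.92% and 1.90% at day 0. Among the unthinned members of day 4, 206 control and 231 KO cells had exactly 3 of the 6 counted genes, 75 and 94 had 4, 25 and 26 had 5, and 3 and 4 had all 6. Just outside the rule, with *Samsn1* and 2 of the 6 genes, stood 276 control and 368 KO cells. Some genes that the rule did not name were higher just inside than just outside in both pools: *Cd83* was at 481 counts per 1000000 UMIs (CPM) outside and 630.3 just inside in the control, and at 567 and 673 in the KO, and *Dock10* was at 478 and 670.2, and at 499 and 646. Others had no such step in 1 of the pools: *Nfil3* was at 11.3 and 25.8 CPM in the control and 15.4 and 15.1 CPM in the KO, and *Socs1* at 50.9 and 79.8 CPM and 58.3 and 58.8 CPM. *Socs3* was at 25.4 and 24.5 CPM in the control and 27.9 and 31.4 CPM in the KO. Of 8658 genes tested between these neighbours, 1.92% were at least 1.5 times as high inside and 2.24% as low by the same factor.

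The same gene criteria were applied to cells that had not entered the set. They were met by 3 of 7323 *Cd3e*-positive cells of the T cell library (0.0410%, median depth 5111 UMIs), a cell type that should lack this combination. Of the dividing B cells of day 4, with a UMI of *Mki67*, 13 of 71 control cells met them (18.3%, exact binomial interval 10.1 to 29.3%) and 17 of 86 KO cells (19.8%, 11.96 to 29.8%), at median depths of 23768 and 16484.5 UMIs. None of the 14 and 27 dividing cells of day 0 did, which for these numbers allows up to 23.2% and 12.8%. Own hashtags had median counts of 2211 to 4337 per pool and the next hashtag 57 to 150.

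The rule genes give the size of the difference that the choice of cells built in. *Samsn1* (chromosome 16, 75858793 to 76022281 on the minus strand of GRCm38) was at 1005 (966 to 1045) CPM in control day 4 members and 1070.2 (1033 to 1109) CPM in KO day 4 members, with Poisson intervals in brackets. Other B cells held 378 and 448 CPM at day 4 and 97.1 and 102 CPM at day 0. The cells that did not qualify thus had 3.89 and 4.41 times the day 0 level, in comparisons where 2.39% of genes were higher and 4.69% lower in the control and 1.98% and 2.94% in the KO, and the members stood above them. *Il4i1* was at 612 and 729 CPM in members, 277 and 276 CPM in other B cells of day 4, and 137 and 114 CPM in those of day 0. *Gadd45g* was at 179 and 213 CPM in members against 34.2 and 39.0 CPM in other B cells of day 4. The fewest molecules of the 7 were those of *B3gnt7*, with 57 and 90 UMIs in the summed members. *Lifr* had the largest ratio of day 4 members to other B cells of day 0, where it held 2.32 and 2.28 CPM in other B cells, against 82.8 and 62.0 CPM in day 4 members. In dividing B cells of day 4 *Samsn1* was at 189 and 265 CPM, below other B cells of day 4 and above those of day 0. *Il4i1* was at 83.6 and 91.6 CPM there, below the other B cells of both days.

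The name of the set as activated B cells was set beside genes the rule did not use. One of them, *Cd83*, was among the markers given with the set, so its level describes the name and is no independent check of it. *Cd83*, a surface protein of activated B cells that stabilises MHC class II (chromosome 13, 43784775 to 43803132), was at 651 (619 to 683) CPM in control members and 734 (702 to 766) CPM in KO members. Other B cells of the same pools held 339 and 377 CPM, and those of day 0 151 and 140.4 CPM. Levels of both member pools were above every other pool of B cells, dividing cells included (155 and 169 CPM). Most of the other activation genes did not follow it. Of 12 activation and costimulation genes with enough UMIs, *Cd83* and *Slamf1* were higher in members of both pools, *Cd274* and *Cd24a* were lower in the control, and *Cd44* was lower in the KO. Higher or lower here means a CPM ratio of at least 1.5, or at most 1 divided by 1.5, and 50 UMIs or more over both sums. Over all 9010 genes tested in the control, 2.51% were higher and 5.35% lower by that measure, and over 9408 in the KO, 2.60% and 5.35%. *Cd69*, an early activation antigen, was at 85.2 against 84.3 CPM in the control and 117 against 94.9 CPM in the KO. In control cells of 4000 to 9000 UMIs alone, *Cd69* was lower in members, at 68.5 against 100.4 CPM. *Cd86*, a ligand of CD28, was at 28.1 against 24.5 CPM and 28.4 against 29.3 CPM, and *Il2ra* had 2 UMIs in the members of each day 4 pool. *Slamf1*, a receptor of the SLAM family, was at 47.9 against 31.0 CPM and 52.2 against 34.3 CPM. Among cells of 4000 to 9000 UMIs it was at 47.4 against 33.6 CPM in the control, under 1.5 times, and at 57.0 against 36.1 CPM in the KO. The word activated thus rests mainly on *Cd83* among these genes, and the cells are called by *Samsn1* here.

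Members held the genes of B cells at the level of their neighbours: none of 15 B cell identity genes was past 1.5 in either pool. Of 6 follicular genes, 0 were higher and 1 lower in the control and 1 and 1 in the KO, whereas marginal zone, B1 and transitional genes had median ratios below 1. *Fcer2a*, the low-affinity IgE receptor CD23 of follicular cells, was at 695 against 476 CPM in the control (ratio 1.46, 1.38 to 1.55) and 767 against 487 CPM in the KO (1.57, 1.496 to 1.66). All 8 marginal zone genes were tested, and 1 was lower in control members and 4 in KO members, with a median log2 ratio of −0.49 and −0.65 against 0.00 and 0.01 over all genes. Among them, *Cd1d1*, which presents lipids, was at 23.4 against 34.5 CPM and 13.7 against 34.1 CPM, and *Dtx1*, a gene of the Notch pathway, at 65.0 against 111 CPM and 71.1 against 127 CPM. *Cr2*, the complement receptor CD21, was at 396 against 379 CPM and 400.1 against 465 CPM. In control cells of 4000 to 9000 UMIs it was at 315 against 382 CPM. Of the 6 transitional genes 4 were lower in the control and 2 in the KO, with *Cd24a* at 168 against 289.9 CPM and 201 against 285 CPM. In cells of 4000 to 9000 UMIs alone, 0 and 1 of the transitional genes and 4 and 4 of the marginal zone genes were lower. Of the B1 genes 4 were tested, with 1 and 3 lower in members.

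Immunoglobulin transcripts, which the rule did not use, were those of unswitched cells. *Ighd*, the constant region of IgD, made up 42.4% of heavy chain constant UMIs in control members and 42.9% in KO members, against 22.9% and 29.2% in other B cells. In CPM the *Ighd* levels lay closer. Among control cells of 4000 to 9000 UMIs *Ighd* was at 810 CPM in members and 761 CPM in other B cells. Just outside and just inside the rule it was at 713 and 760 CPM in the control, and at 740 and 739 CPM in the KO. *Ighm* was at 975 and 991 CPM in members and 1390.1 and 1294 CPM in other B cells. Cells with more UMIs of switched classes than of *Ighm* and *Ighd* together were 4 of 309 members (1.29%, exact binomial interval 0.354 to 3.28%) in the control and 1 of 355 (0.282%, 0.00713 to 1.56%) in the KO. Among other B cells they were 2.08% and 1.39%, and among dividing B cells of day 4 38.0% and 22.1%. *Jchain*, the joining chain made by plasma cells, had 16 and 61 UMIs in all members, against 7817 and 4435 UMIs in other B cells. No filter took plasma cells out of the other B cells, and their part in the shares of *Ighd* was not tested.

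Heavy chain variable genes were spread over the members. A variable gene could be assigned where it held at least 80% of 3 or more variable gene UMIs, in 210 of 309 control and 236 of 355 KO members. These cells used 65 and 72 different genes. The most frequent was *Ighv1-18* in the control, in 12 cells (5.71%, 2.99 to 9.77%), and *Ighv3-6* in the KO, in 11 cells (4.66%, 2.35 to 8.19%). In the other B cells *Ighv1-26* led, with 7.22% and 6.62%. No variable gene was carried by more than those 12 members of a pool, and the files used here hold no receptor sequences that would show clones.

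**Figure D2:**
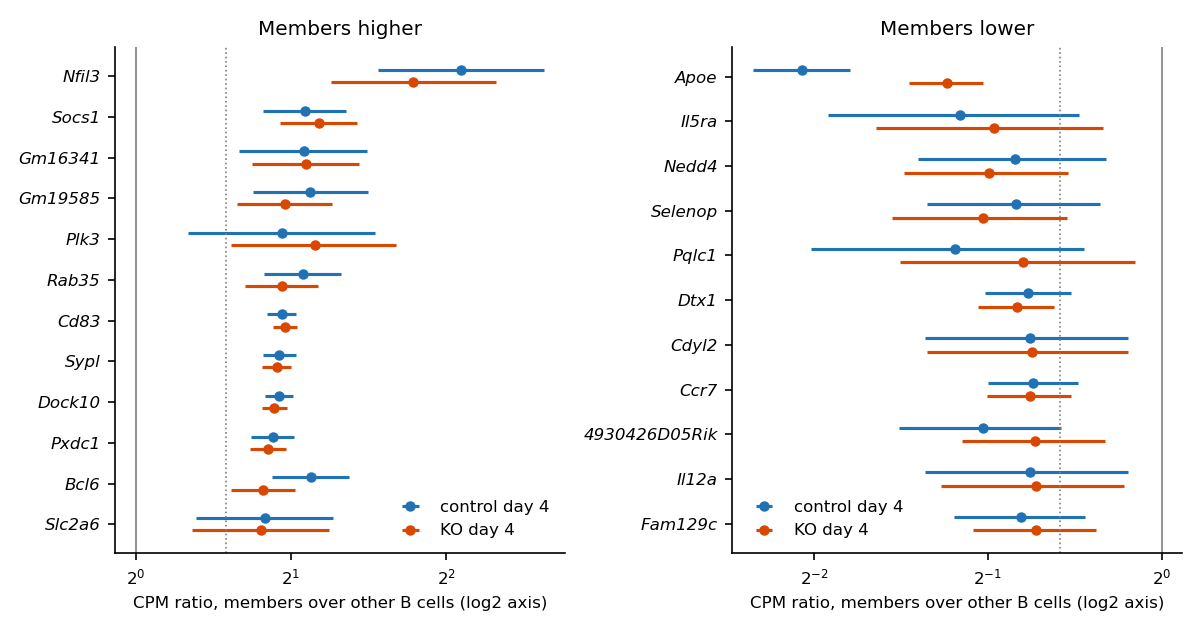
Ratio of CPM in members to CPM in other B cells of the same day 4 pool (log2 axis, points, with 95% conditional binomial intervals of counting error as bars) for 12 higher and 11 lower genes, blue for control and orange for KO. Dotted lines mark the ratio of 1.5 and its inverse, and the 2 pools lie on the same side of 1 for each gene shown.

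In all, 226 genes were higher and 482 lower in control members than in other B cells, and 245 and 503 in KO members. Shared by both pools were 61 higher genes (27.0% of the control's and 24.9% of the KO's) and 153 lower genes (31.7% and 30.4%). A further 13 genes were higher in the control and lower in the KO, and 13 the reverse. These counts include the rule genes. The genes described next were taken by a fixed order, the ratio nearest to 1 of both pools among genes with at least 100 UMIs and no more than 10% of them in 1 cell, as drawn in the plot of member to other B cell ratios.

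The first genes of this order on the higher side were *Nfil3* and *Socs1*. *Nfil3*, a transcription repressor inducible by IL-4 in B cells, was at 30.1 (23.7 to 37.7) CPM in control members and 21.7 (16.7 to 27.8) CPM in KO members, against 7.06 and 6.29 CPM in other B cells of day 4 and 0.536 and 0.950 CPM in those of day 0. Its ratio to other B cells of day 4 was 4.27 (2.95 to 6.21) in the control and 3.46 (2.39 to 5.004) in the KO, the largest of the genes named this way in both pools. *Socs1*, an inhibitor of JAK kinases, was at 81.2 (70.5 to 93.1) and 80.2 (70.2 to 91.3) CPM in members, 38.2 and 35.4 CPM in other B cells of day 4, and 12.5 and 12.2 CPM in other B cells of day 0. Both steps, from day 0 to the day 4 pool and from there to the members, went up in each genotype. *Socs3*, an inhibitor of signals through gp130, stood at 29.7 and 30.5 CPM against 18.0 and 16.8 CPM at day 4, and 5.0002 and 4.94 CPM at day 0. Among cells of 4000 to 9000 UMIs *Socs3* was no longer past 1.5 in the control, at 25.6 against 21.1 CPM, and stayed past it in the KO, at 34.6 against 18.4 CPM.

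Over the whole list of 26 cytokine receptors and STAT target genes, 23 were tested in each pool. In control members 4 were higher (*Socs1*, *Socs3*, *Bcl6* and *Nfil3*) and 1 lower (*Il6st*), and in KO members 6 were higher, the same 4 with *Il4ra* and *Fcer2a*, and 1 lower (*Batf*). The median log2 ratio of the list was 0.07 and 0.17. *Il4ra*, the receptor chain for IL-4 and IL-13, was at 95.1 against 67.2 CPM in the control (ratio 1.41, 1.21 to 1.65) and 109 against 67.6 CPM in the KO (1.61, 1.40 to 1.85). *Il21r*, the IL-21 receptor, had ratios of 1.43 (1.24 to 1.64) and 1.40 (1.23 to 1.58). *Il6st*, which encodes gp130, the partner of the *Lifr* product, was low in members, with 15 and 18 UMIs in all.

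The deleted gene could not be followed in these cells. *Il2rb* had 0 UMIs in the 2524005 UMIs of control members, where a limit set at 3 UMIs is 1.19 CPM. It had 1 UMI in the 2854540 UMIs of KO members. Other B cells of day 4 held 3 and 1 UMIs. The dividing cells held 8 in the control and 2 in the KO, so this gene offers no check of the genotype labels among members. *Il2rg*, the common cytokine receptor chain, was at 393 and 391 CPM in members and 353 and 390.4 CPM in other B cells. For *Il15ra* there were 10 and 9 UMIs in the members.

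*Bcl6*, the transcription repressor required for germinal center B cells (chromosome 16, 23965052 to 23988852, minus strand), was at 94.7 (83.1 to 107) and 103 (91.9 to 116) CPM in members. Other B cells of day 4 held 43.3 and 58.4 CPM, those of day 0 45.4 and 45.0 CPM, and dividing B cells 40.5 and 48.1 CPM. Members thus had the highest *Bcl6* level of the 4 kinds of cells in both genotypes. Of other germinal center genes, *Fas*, the death receptor raised on germinal center cells, had 10 and 13 UMIs in members, and *Mef2b*, a transcription factor, had 11 and 15. In dividing cells *Mef2b* was at 95.1 and 74.2 CPM.

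The stretch before each RefSeq start of genes that were high in members was searched for the paired half-sites that STAT proteins are known to bind, written TTCNNNGAA and TTCNNNNGAA, and for the NF-kB type motifs GGGNNTTCC and GGGNNTTTCC. Windows were the 250 bases before the start in GRCm38.p6, both strands were read, and a base could belong to matches of several motifs. Of 17 genes chosen with their values known, 16 had a RefSeq window, *Cd83* had none, and 17 of the 22 windows held none of the 4 motifs, among them every window of *Samsn1*, *Gadd45g*, *Lifr*, *Rflnb*, *Il4i1*, *B3gnt7*, *Nfil3*, *Socs1*, *Dock10*, *Sypl*, *Plk3* and *Rab35*. Over all 32851 RefSeq windows, TTCNNNGAA occurred in 7.02%, TTCNNNNGAA in 5.85%, GGGNNTTCC in 4.98% and GGGNNTTTCC in 1.41%. Both *Bcl6* windows held TTCNNNGAA, once at −118 from the first start and 3 times before the second start, which lies inside the gene. *Socs3* and *Slamf1* had 1 match each in their single windows, TTCTTAGAA at −154 and TTCTCAAGAA at −148, and 1 of 3 *St7* windows held a match of each of 2 motifs. The *Bcl6* windows are shown as examples that overlap no annotated exon, and capitals mark the matches. A match is one of letters, not evidence of binding. The first window is chr16:23988853-23989102 and the second chr16:23981284-23981533, both on the minus strand, in GRCm38.p6 sequence from RefSeq, 5′ to 3′ on the gene's strand.
Bcl6 first start: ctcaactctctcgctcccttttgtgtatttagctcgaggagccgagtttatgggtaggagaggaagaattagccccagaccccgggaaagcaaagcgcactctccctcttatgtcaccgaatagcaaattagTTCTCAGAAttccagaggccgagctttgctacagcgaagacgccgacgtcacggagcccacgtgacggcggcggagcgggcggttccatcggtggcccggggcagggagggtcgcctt
Bcl6 second start: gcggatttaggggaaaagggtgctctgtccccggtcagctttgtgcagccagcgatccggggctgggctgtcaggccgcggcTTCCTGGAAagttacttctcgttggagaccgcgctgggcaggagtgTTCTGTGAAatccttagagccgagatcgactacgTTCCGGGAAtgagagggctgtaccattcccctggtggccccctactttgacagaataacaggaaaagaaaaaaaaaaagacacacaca

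The remaining higher genes of this order have varied functions. *Dock10*, an exchange factor for small GTPases that is inducible by IL-4 in B cells, was at 687 (655 to 719.7) and 710.1 (679.5 to 742) CPM in members. Other B cells held 362 and 382 CPM at day 4 and 218 and 234 CPM at day 0. *Rab35*, a GTPase of endocytic recycling, had ratios of 2.11 (1.77 to 2.50) and 1.92 (1.63 to 2.25) to other B cells of day 4, and *Sypl*, a vesicle membrane protein, of 1.90 (1.77 to 2.04) and 1.88 (1.76 to 2.003). *Plk3*, a stress-responsive kinase, had 1.92 (1.26 to 2.91) and 2.22 (1.53 to 3.20), from 41 and 51 UMIs in members. The other higher genes of this order were *Pxdc1*, *Slc2a6*, a member of the glucose transporter family, and the predicted genes *Gm16341* and *Gm19585*, with ratios from 1.75 to 2.18. *Gm16341* (chromosome 1, 86275509 to 86301375, minus strand) lies beside the rule gene *B3gnt7*, which starts at 86302832 on the plus strand. Whether its level is separate from that of *B3gnt7* was not tested.

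MHC class II genes moved together by a small amount. All 9 of the list had a ratio above 1 in both pools and none reached 1.5, with medians of 0.26 and 0.22 on the log2 scale. *H2-Aa*, an alpha chain of the class II molecule, was at 6209 against 5439 CPM in the control and 6282 against 5465 CPM in the KO. *Ciita*, the transcription coactivator of these genes, was at 334 against 245 CPM (ratio 1.36, 1.25 to 1.48) and 359 against 255 CPM (1.41, 1.31 to 1.52). *H2-DMa*, which helps to load peptide, had ratios of 1.32 (1.25 to 1.40) and 1.33 (1.26 to 1.40). Against other B cells of day 0, *Ciita* and *H2-DMa* were past 1.5 in both genotypes.

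Genes of sterol synthesis and uptake were a group that stood out after the values were seen, and the 17-gene list was written then, so its counts describe and support nothing. In control members 8 of 17 were higher, in KO members 10 of 17, and none was lower, with medians of 0.52 and 0.62 on the log2 scale. *Sqle*, the squalene epoxidase, was at 25.8 against 15.4 CPM in the control and 34.3 against 17.5 CPM in the KO, with 8.75 and 13.7 CPM in other B cells of day 0. *Fdft1*, the squalene synthase, was at 35.3 against 19.0 CPM and 32.9 against 20.6 CPM, with 14.5 and 18.6 CPM at day 0. *Hmgcs1*, an early enzyme of the pathway, passed 1.5 in 1 pool, with ratios of 1.13 (0.867 to 1.47) in the control and 1.79 (1.46 to 2.18) in the KO. The counts vary with the cells taken: 3 and 13 genes were higher among cells of 4000 to 9000 UMIs, and 9 and 6 after leaving out cells with 2 or more UMIs of other lineages.

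**Figure D3:**
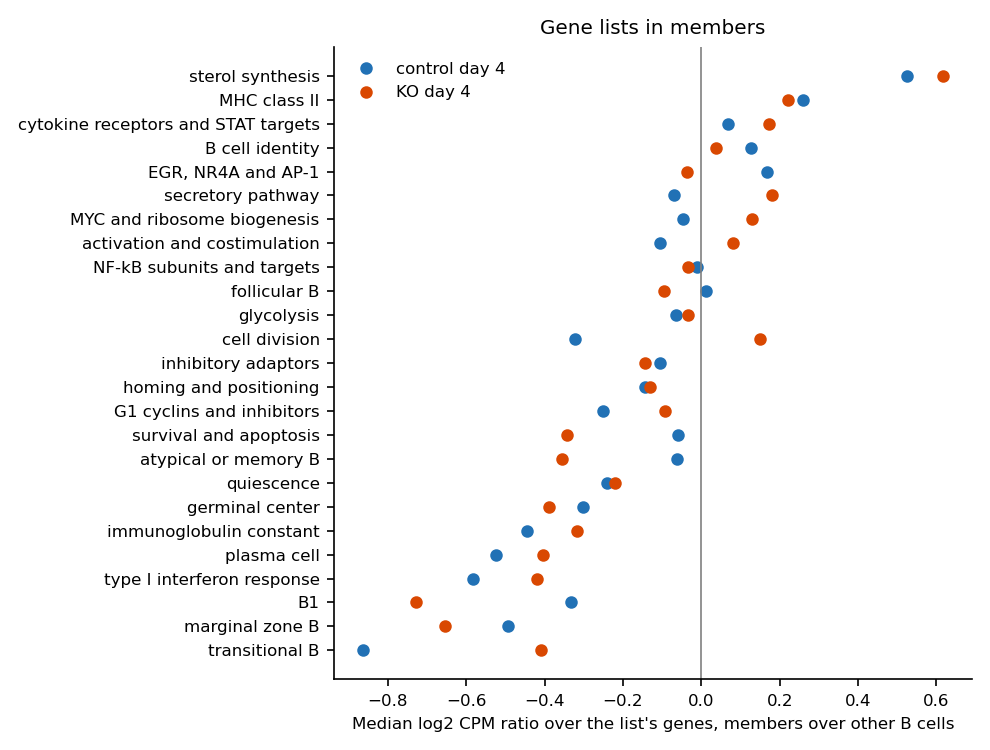
Median log2 ratio of CPM, members over other B cells of the same day 4 pool, over the tested genes of each list (points, blue for control and orange for KO, 1 value per pool, no error bars). Sterol synthesis and MHC class II lie highest in both pools, and the marginal zone, B1, interferon, plasma cell and transitional lists lie at −0.33 or lower in both.

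Among the lower genes were receptors and markers of other B cell states. *Ccr7*, the receptor that draws lymphocytes to the T cell zone, was at 60.2 (51.0 to 70.6) and 59.2 (50.6 to 68.8) CPM in members, 100.5 and 100.1 CPM in other B cells of day 4, and 156 and 151 CPM in those of day 0. The day 4 pools were thus lower than the day 0 pools, and the members lower still. *Gpr183*, the oxysterol receptor that guides B cells to the outer follicle, went the other way, with 301.5 and 297 CPM in members, 191 and 212 CPM in other B cells of day 4 and 160.2 and 138 CPM at day 0. It passed 1.5 in the control (1.58, 1.45 to 1.73) and not in the KO (1.40, 1.29 to 1.52). *Cxcr5*, the receptor for the follicle chemokine, had ratios of 0.847 (0.730 to 0.980) and 0.868 (0.764 to 0.984). Of 14 homing genes tested, 1 was higher and 1 lower in the control and 0 and 2 in the KO.

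Other lower genes were *Apoe*, the lipid carrier, at 46.0 against 193 CPM in the control and 70.4 against 166 CPM in the KO, and *Il5ra*, the IL-5 receptor chain, with ratios of 0.447 (0.264 to 0.720) and 0.513 (0.319 to 0.791). *Nedd4*, a ubiquitin ligase, *Selenop*, a selenium carrier, *Il12a*, a subunit of IL-12, and *Pqlc1*, *Cdyl2*, *Fam129c* and *4930426D05Rik* had ratios between 0.439 and 0.606. Macrophages make much *Apoe*, and their marker list of 7 genes summed to 188 UMIs in control members, 46.8% of them in 1 cell, and to 1764 UMIs in the control's other B cells. In the KO it summed to 29 and 530 UMIs. Of these 7 genes, 3 had no UMI in the members of either pool and 1 had none in the other B cells. Without cells that held 2 or more UMIs of other lineages, the *Apoe* ratio in the control was 0.296.

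A share of the interferon-induced genes was lower in members. Of 14 tested in the control 7 were lower and none higher, and of 15 in the KO 5 were lower, with medians of −0.58 and −0.42 on the log2 scale. *Ifit3* was at 7.53 against 20.5 CPM in the control and 8.76 against 18.5 CPM in the KO, and *Rtp4* at 28.1 against 43.4 CPM and 27.7 against 49.8 CPM. *Ifitm3* was at 23.0 against 64.9 CPM and 8.41 against 27.3 CPM. In cells of 4000 to 9000 UMIs the counts were 4 and 9.

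Several programmes of activated lymphocytes were near the level of all genes. None of the 18 MYC and ribosome biogenesis genes was past 1.5 in either pool, with medians of −0.05 and 0.13, and *Myc* itself was at 65.8 against 71.3 CPM and 73.6 against 85.2 CPM. None of 15 glycolysis genes was past 1.5, and of 17 NF-kB subunits and targets only *Nfkbie* and *Bcl2a1d* were, both lower in the control. The Jun family gene *Jund* was at 941 against 634 CPM and 971 against 639 CPM, whereas *Fos* had 7 and 6 UMIs in members. Of 14 genes of quiescent lymphocytes 1 was lower in the control (*Tob1*) and none in the KO, with medians of −0.24 and −0.22. Against other B cells of day 0, 6 and 4 of these 14 were lower. *Tsc22d3*, a glucocorticoid-induced gene of resting lymphocytes, was at 85.6 and 102 CPM in members and 219 and 236 CPM at day 0.

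Against other B cells of day 0, which hold no immunized cells, members differed further in many of the genes above. In this comparison 2.49% of genes were higher and 9.87% lower in the control, and 3.23% and 7.24% in the KO, with a median log2 ratio over all genes of −0.10 and −0.03. Genes of the cytokine and STAT list numbered 5 higher and 3 lower in the control and 7 higher and 2 lower in the KO, out of 23. Counts for the secretory list were unlike in the genotypes: 1 of 19 genes was higher and 2 lower in the control, and 9 were higher in the KO. *Hsp90b1*, a chaperone of the endoplasmic reticulum, was at 365 in control and 487 CPM in KO members, while other B cells of day 0 stood at 580.4 and 315 CPM, so the wider gap lay between the day 0 pools. *Jchain* in these day 0 cells was also unequal, at 717 and 223 CPM, and the part of plasma cells was not tested.

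**Figure D4:**
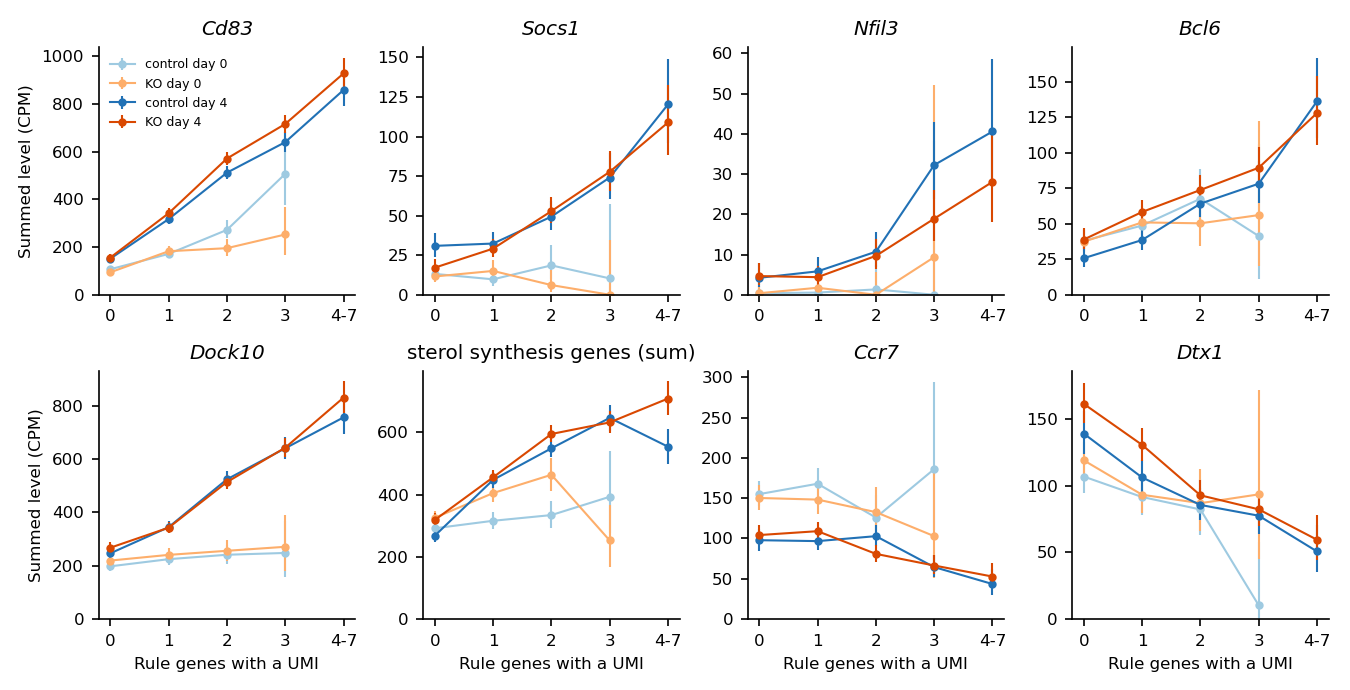
Summed level (CPM, vertical axes from 0, 95% Poisson intervals as bars) of 7 genes and of the 17 sterol synthesis genes against the number of rule genes with a UMI after thinning each cell to 3000 UMIs, in the 4 pools. At day 4 *Cd83*, *Socs1*, *Nfil3*, *Bcl6* and *Dock10* climb from 0 to 4 or more rule genes in both genotypes while *Ccr7* and *Dtx1* decline, and the day 0 points with 3 genes rest on 18 and 16 cells.

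Levels of several accompanying genes changed over the bins at day 4, as the plot by number of rule genes shows. Detection was sparse after thinning, with *Lifr* in 8.76% of control and 6.18% of KO day 4 cells. Cells of unlike kinds can therefore share a bin, and the bins cannot tell a graded change from a step. In control day 4 cells with 0, 1, 2, 3 and 4 or more rule genes after thinning, *Cd83* was at 151, 317, 511, 639 and 858 CPM. In KO day 4 cells it was at 156, 341, 571, 715 and 927 CPM. Median depth before thinning was 5857 to 6504 UMIs over the control's 5 bins and 5843 to 6331 over the KO's, so the bins did not differ much in depth. *Dock10* ran through 247, 345, 524, 641 and 756 CPM in the control. At day 0, with 0 to 3 rule genes, *Dock10* was at 198, 225, 241 and 248 CPM in the control and 219.5, 241, 256 and 271 CPM in the KO. The same detected genes thus came with a *Dock10* rise at day 4 and with little of it at day 0.

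*Socs1* behaved alike, at 30.9, 32.4, 49.4, 74.1 and 120.3 CPM in the control of day 4 and 13.2, 9.75, 18.6 and 10.3 CPM in the control of day 0. *Dtx1* fell over the bins at day 4, through 139, 106, 85.6, 77.5 and 50.7 CPM in the control and 161, 131, 92.8, 82.3 and 59.5 CPM in the KO. *Ccr7* was at 97.8, 96.7, 103, 64.5 and 43.5 CPM and 104, 109, 80.9, 66.4 and 52.8 CPM. For the summed MYC list no such order was seen, with 2861, 3217, 3396, 3490.1 and 2968 CPM in the control. The rule genes were detected by the same molecules that set the bins, so these values describe how genes go together across cells of 1 pool.

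Compared with dividing B cells of day 4, members differed in a large share of the genes. In the control 23.1% of 7519 genes were higher and 22.3% lower in members, and in the KO 17.4% and 18.6% of 7671. All 20 cell division genes were lower in both pools, which the rule on *Mki67* shapes, with medians of −4.86 and −3.92 on the log2 scale. All 9 MHC class II genes were higher (medians 1.504 and 1.09 on the log2 scale), as were 12 of 13 and 11 of 13 quiescence genes. Of 19 secretory genes 17 and 15 were lower, of 14 glycolysis genes 8 and 9, and of the plasma cell genes all 9 and all 7 tested. *Prdm1*, the master regulator of plasma cells, had 2 and 1 UMIs in members and was at 38.4 and 15.1 CPM in dividing cells. Dividing cells had more UMIs per cell (medians 23768 and 16484.5), and the comparison is one of shares of UMIs.

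The 22 members of day 0 hold 213580 UMIs and allow only coarse statements. Day 4 members had 4.11 (3.15 to 5.48) times their level of *Samsn1* and 2.56 (1.97 to 3.38) times their level of *Cd83*. *Lifr* had 1 UMI in the day 0 members and *Nfil3* had 0, where a limit set at 3 UMIs is 14.0 CPM. That limit is a setting and not a Poisson interval. *Nfil3* in the day 4 members of both genotypes, at 30.1 and 21.7 CPM, was above that limit. In all, 17.9% of 7912 genes were higher and 14.8% lower at day 4.

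**Figure D5:**
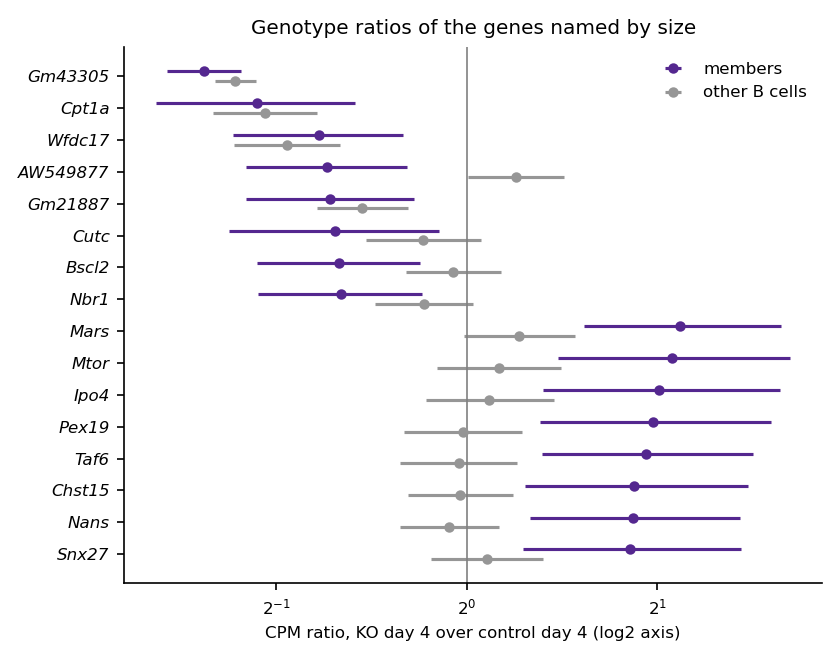
Ratio of CPM in KO day 4 to CPM in control day 4 (log2 axis, points, bars for 95% intervals of counting error) in members (purple) and in other B cells (grey), for the 8 lowest and 8 highest genes by that ratio in members. The lower genes *Gm43305*, *Cpt1a*, *Wfdc17* and *Gm21887* have like ratios in other B cells, and the 8 higher genes do not pass 1.5 there.

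Between the genotypes, which the rule did not use, the genes highest in members had like levels in part. *Cd83* had a KO to control ratio of 1.13 (1.06 to 1.20) in members and 1.11 (1.06 to 1.17) in other B cells, *Socs1* 0.988 (0.814 to 1.20) and 0.928 (0.790 to 1.09), *Dock10* 1.03 (0.969 to 1.10) and 1.05 (1.003 to 1.11), and *Bcl6* 1.09 (0.917 to 1.30) and 1.35 (1.17 to 1.55). *Nfil3* had 0.721 (0.507 to 1.02) in members, with an interval that includes 1, and 0.891 (0.604 to 1.32) in other B cells. Of the rule genes, *St7* was at 73.9 in KO and 101 CPM in control members, and *Lifr* at 62.0 and 82.8 CPM, with ratios of 0.732 (0.607 to 0.882) and 0.749 (0.609 to 0.919). In other B cells those 2 ratios were 0.678 (0.519 to 0.883) and 0.693 (0.536 to 0.895). All genes together gave 264 higher and 162 lower in KO members out of 7812 (3.38% and 2.07%), and, when ratios were scaled by their median, 195 and 200. In other B cells 1.73% were higher and 1.80% lower, from larger sums.

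Lower in KO members were *Gm43305* (109 against 283 CPM, ratio 0.385, 0.336 to 0.440) and *Cpt1a*, which brings fatty acids into mitochondria (17.2 against 36.8 CPM, 0.466, 0.323 to 0.665). Both were lower in the KO's other B cells too, with ratios of 0.431 (0.400 to 0.464) and 0.480 (0.397 to 0.579). *Wfdc17* and *Gm21887* were alike in this respect, with 0.584 and 0.608 in members and 0.520 and 0.683 in other B cells. *AW549877*, *Cutc*, *Bscl2*, which encodes seipin, and *Nbr1*, an autophagy receptor, had ratios of 0.602 to 0.632 in members and 1.19, 0.854, 0.952 and 0.856 in other B cells. A difference between members and other B cells in these ratios was not tested.

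Higher in KO members were *Mars*, the methionine tRNA synthetase (39.6 against 18.2 CPM, ratio 2.17, 1.53 to 3.13), and *Mtor*, the nutrient-sensing kinase (28.4 against 13.5 CPM, 2.11, 1.40 to 3.24). Each rests on few molecules, 46 and 34 UMIs in the control members. *Ipo4*, an importin, *Pex19*, a peroxisome factor, *Taf6*, a subunit of TFIID, *Chst15*, a sulfotransferase, *Nans*, the sialic acid synthase, and *Snx27*, a sorting nexin, had ratios of 1.81 to 2.01. In other B cells the 8 genes had ratios of 0.938 to 1.21. These are the extremes of 5569 genes that could be named, chosen by size. With at least 4 of the 6 genes asked for, the *Pex19* ratio was 1.31.

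By list, the genotypes of members were close. None of 9 MHC class II genes, 22 cytokine and STAT genes, 12 activation genes or 17 NF-kB genes was past 1.5, and the medians were 0.01, 0.04, 0.19 and 0.06 on the log2 scale, beside 0.05 over all genes. Of 9 cell division genes with enough UMIs, *Rrm1* and *Mcm7* were higher in KO members with ratios of 1.67 (1.19 to 2.37) and 1.501 (1.06 to 2.15), and 8 had a ratio above 1, with a median of 0.40, where other B cells had −0.03. The gap lay mainly in members with exactly 3 of the 6 genes, whose summed level of the list was 825 CPM in the KO and 551 CPM in the control. With 4 genes the sums were 566 and 571 CPM, with 5 or 6 genes 615 and 508 CPM, and among members of 4000 to 9000 UMIs 629 and 574 CPM. *Odc1*, the enzyme of polyamine synthesis, was at 69.4 against 46.0 CPM (1.51, 1.19 to 1.91), and in other B cells its ratio was 1.05 (0.929 to 1.18). The marginal zone genes *Cd9* and *Cd1d1* were lower in KO members, at 6.66 against 16.2 CPM and 13.7 against 23.4 CPM. Of the interferon genes *Bst2* and *Ifi27l2a* were higher (ratios 1.77 and 1.51) and *Ifitm3* lower (0.366), and in other B cells the ratios were 0.996, 1.35 and 0.421.

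Cells with molecules of other lineages were about as frequent among members as among other B cells. Cells with 2 or more UMIs of T, NK, monocyte, neutrophil, dendritic or erythroid markers were 8.09% of control and 7.32% of KO members and 7.59% and 7.22% of other B cells. T cell markers summed to 23.4 and 30.8 CPM in members and 25.6 and 29.3 CPM in other B cells. In the KO 1 member held 79.7% of the 59 dendritic marker UMIs, and 1 other B cell 99.3% of the 12597 erythroid UMIs. Of all barcodes 84 occurred in both libraries, 5 of them members. Cells with more than 1 strong hashtag were left out as doublets, and doublets of cells from 1 pool could not be seen.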

How the data were processed

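Gene and hashtag values are whole UMI counts per cell barcode, made by the authors with Cell Ranger 5.0.0 on mm10, per the submitters' processing notes, and deposited as filtered matrices of 32285 genes. Cells were kept with at least 200 genes and under 10% mitochondrial UMIs (6218 of 6339), and with a top hashtag of at least 10 UMIs and 3 times the next (5701). Of these, 5520 had *Cd79a* and no *Cd3e*, 198 of them with *Mki67*. Cells with several hashtags were dropped as doublets, and no doublet caller was run.

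Counts were summed over the cells of a pool and class and divided by the total. Genes entered a comparison from 50 UMIs upward, added over its sums. Levels have Poisson intervals, ratios conditional binomial and shares Clopper-Pearson intervals, all at 95%. The limits printed for gene sums of 0 UMIs were set at 3 UMIs instead. Summed UMIs were 2524005 and 2854540 in members of day 4, 110682 and 102898 in members of day 0. PCR and capture errors are not in the intervals, nor is variation between cells or between mice. The steps were tested on simulated counts that held counting error alone. Python 3.11.15, numpy 2.4.6, scipy 1.17.1, pandas 2.3.3 and matplotlib 3.10.9 were used.

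Named genes were first the 12 highest and 12 lowest by the ratio nearer to 1 of both day 4 pools, and the 8 highest and 8 lowest between genotypes. These were taken from genes with at least 100 UMIs and at most 10% in 1 cell. Up to 4 genes of each list and the IL-2 receptor genes were named without those limits, and some rest on few UMIs. A few genes are not reported here. The members, gene lists and rule were chosen with earlier results of these data known. Promoter windows are RefSeq's for GRCm38.p6, and gene positions come from the GENCODE annotation of GRCm38. Alternatives were other rule limits, thinning, a fold of 2, other UMI minimums and depths, other comparison cells, scaling by the median ratio, and leaving out cells with UMIs of other lineages.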

Additional observations from a re-analysis of the deposited data

Results flagged for a closer look

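B cells that passed the quality filters but carried no single dominant hashtag were used in no comparison. Of these 481 cells, 112 (23.3%) met the gene part of the rule, against 686 of 5322 (12.9%) among B cells with a single hashtag. Their median depth was 9431 UMIs against 5383, and the part of depth and of doublets in that share was not tested.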

How the results depend on the processing

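Asking for 2 of the 6 genes gave 5.98% and 5.65% members in control and KO at day 0 and 41.3% and 38.8% at day 4, and asking for 4 gave 0.0920%, 0%, 7.27% and 6.65%. Thinning gave 0%, 0.119%, 7.91% and 8.11%, with a KO to control ratio of 1.03. At a fold of 2, members had 42 higher and 158 lower genes than other B cells in the control, 42 and 194 in the KO, 40 and 30 between genotypes, and 782 and 929 (control) and 474 and 701 (KO) against dividing cells. With a minimum of 20 UMIs the counts were 393 and 884, 428 and 889, and 538 and 381. Against other B cells with none of the 7 genes, 667 and 599 genes were higher, and against day 0 cells 869 were lower in the control. With 2 of the 6 genes, 705 genes were higher in day 4 than in day 0 members. The cause of these shifts was not tested, beyond the change in cells or genes that each setting makes. Of the 24 genes named by size, 3 in the control and 9 in the KO moved past their counting interval among cells of 4000 to 9000 UMIs, 13 and 16 against B cells with none of the 7 genes, and 13 and 17 against day 0 cells, and 16 of 40 list counts moved in that depth window. None of these ratios crossed 1, and the counts over all genes stayed within 1.5 times under the others: a hashtag ratio of 10, mitochondrial UMIs under 5%, cells of 4000 to 9000 UMIs, scaling by the median, and leaving out cells with UMIs of other lineages. No paired analysis was possible because each genotype and day is 1 pool, and for the same reason no pool could be left out.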
